A study of Arabidopsis thaliana with 12 samples.

Results

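The set described here holds 111 of the 33557 genes measured in *Arabidopsis thaliana* roots, all lower with arsenate, As(V), after 1.5 h and higher with it after 24 h. Messenger RNA was sequenced from roots of the Col-0 ecotype, with no mutation or transgene named in any group. Seedlings stood for 7 days on medium with 1 mM phosphate and for 2 days on the medium labelled J-P. They then met liquid J-P with 30 µM As(V) (the AsV groups) or served as mock samples for 1.5, 6 or 24 h. The 6 groups have 2 libraries each, every library from 60 pooled seedlings. The labels give replicate numbers and do not say whether replicates came from separate cultures, so p-values measure only the spread between these samples, which may be technical.

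Members were chosen from FPKM, the fragments per kilobase of transcript and per unit of library size that the authors deposited. The change at a time is the log2 ratio of the AsV mean plus 1 FPKM to the mock mean plus 1 FPKM. A member has a mean of at least 5 FPKM over the 12 libraries, a change of at most -1 at 1.5 h and a change of at least 0.8 at 24 h. Of 14768 genes at 5 FPKM or more, 14% met the limit at 1.5 h and 12.9% met the limit at 24 h. All values at 1.5 h and 24 h were used by this choice and are given as description, without a test. The change at 6 h was not used, and it was tested.

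Arsenate resembles phosphate and enters root cells through phosphate transporters. Inside the cell it is reduced to arsenite, which binds thiols and is held in complexes with phytochelatins. Flavonoids, the pathway of several members described below, are phenolic compounds made from phenylalanine by way of chalcones, and flavonols are stored as sugar conjugates added by UDP-glycosyltransferases.

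**Figure D1:**
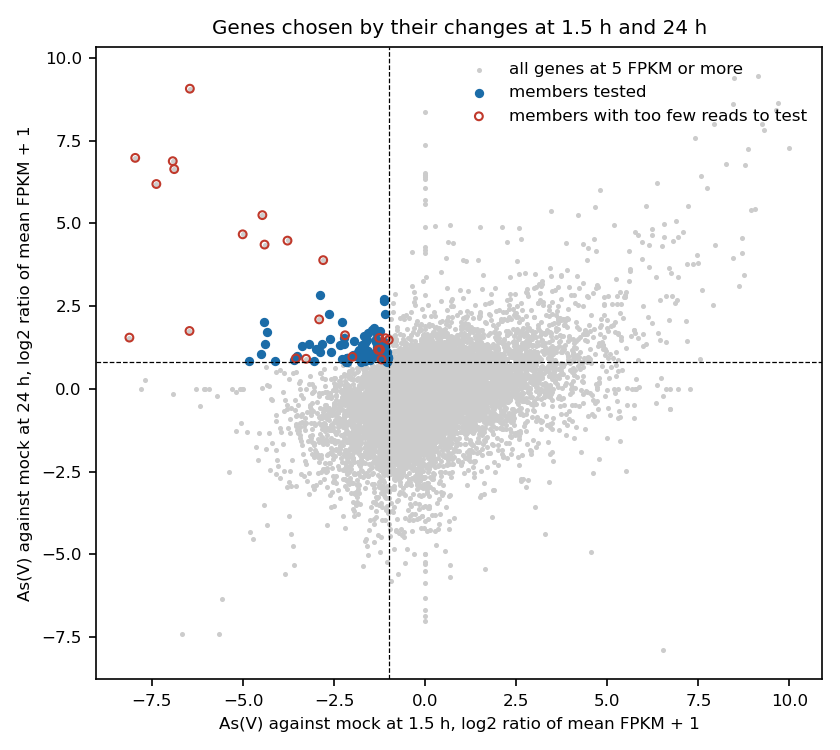
Change of each gene at 5 FPKM or more with As(V) against mock at 1.5 h (horizontal axis) and at 24 h (vertical axis), both as log2 ratios of mean FPKM + 1, with the limits of the choice as dashed lines. The 88 members with enough reads to test (filled) have changes at 1.5 h of -4.83 to -1.01 and at 24 h of 0.8 to 2.84, while the most extreme points of the corner are members with too few reads (open).

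Each library held an estimated 12.6 to 15.6 M reads on genes, and the 9 root marker genes were detected in every group. Their summed level was lower with As(V) at each time. It was 400 to 433 FPKM against 1140 to 1302 FPKM in mock at 1.5 h. At 6 h it was 442 to 497 against 847 to 888 FPKM, and at 24 h 575 to 597 against 958 to 1007 FPKM. The sum mostly reflects PHT1;1, a phosphate transporter, CASP1 and EXPA7, with medians of 379, 129 and 105 FPKM over the libraries. Singly, 5 of the 9 were lower at 6 h, 1 was higher and 3 were not called. The part of root cell makeup in the members' values was not tested. The deposited scaling was not the same in all groups: the library size behind it was 0.641 and 0.656 times the estimated reads in the AsV libraries of 1.5 h, 0.445 and 0.46 times at 6 h and 1.125 and 1.063 times at 24 h, against 0.997 to 1.052 times in the mock libraries. When each library was instead scaled to the same FPKM sum, the median change of all tested genes at 6 h moved from -0.12 to -0.98. All 111 members met the same limits under that scaling, in a larger set of 359 genes, which is almost fixed by construction. The deposited FPKM sums were 1209319 and 1187576 in the AsV libraries of 1.5 h against 784962 and 794262 in mock. At 24 h they were 670886 and 705761 against 772371 and 780528. Equal sums therefore lower the AsV values of 1.5 h relative to mock and raise those of 24 h, which loosens both limits. Samples were whole roots, so fewer cells of a type and less RNA per cell cannot be told apart.

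Of the 111 members, 88 had enough reads to be tested. The other 23 comprise 8 small nucleolar RNAs, 6 microRNA precursors, 4 protein-coding genes, 1 pseudogene and 4 loci with no entry in the reference. For 15 of them the annotated exons add up to fewer than 250 bases, and no library held more than 11 estimated reads in any of the 17 that had an estimate. They include all of the 12 members with the largest difference between the change at 24 h and that at 1.5 h. AT4G03295, a small nucleolar RNA, stands first of these. It was listed at 174 FPKM in mock replicate 1 of 1.5 h, at 405 and 668 FPKM in the AsV libraries of 24 h and at 0 in the other 9 libraries. AT5G66562, also a small nucleolar RNA, was listed at 99.4 and 396 FPKM in mock at 1.5 h, at 87.5 and 0 FPKM in mock at 6 h, at 155 and 95.6 FPKM with As(V) at 24 h and at 0 in the other libraries. Among the microRNA precursors MIR158a was listed above 0 in 4 libraries, at 33 to 42.3 FPKM, and MIR166d in 2 libraries, at 40.5 and 39 FPKM. The 4 members with the highest mean FPKM, AT2G05765, AT2G35747, AT2G20722 and AT1G75166, are small nucleolar RNAs of this kind. What follows is about the 88 tested members, whose best covered library held 67 to 7532 estimated reads, with a median of 585.

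**Figure D2:**
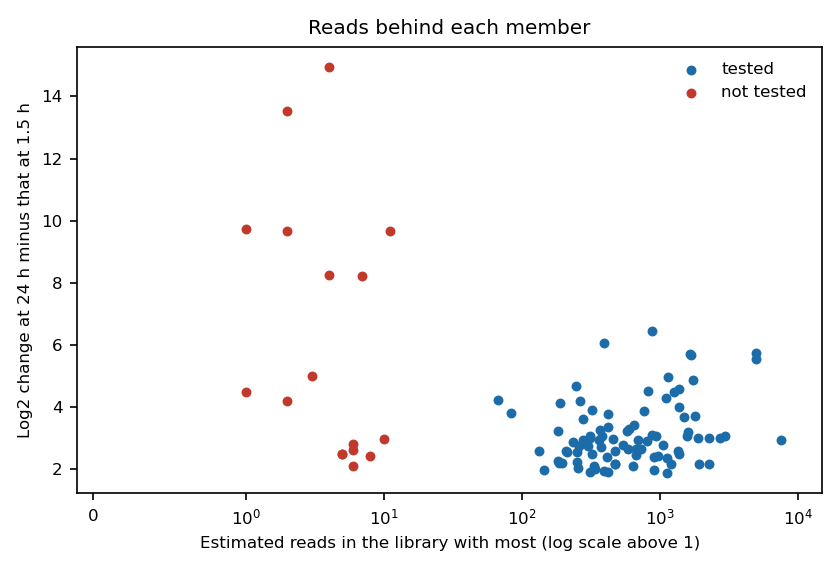
Difference between the log2 change at 24 h and at 1.5 h (vertical axis) against the estimated reads in the library with most of them (horizontal axis, log scale above 1), for members with a read estimate. Members that were not tested lie at 11 reads or fewer and include the largest differences; the tested members start at 67 reads.

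The limits cut through a continuous range of values. AT3G59630, of the diphthamide synthesis family, lay just inside the limit at 1.5 h with a change of -1.012, and AT5G17760 just outside with -0.996. At 24 h the amino acid transporter family gene UMAMIT33 was inside with 0.803 and AT1G62975 outside with 0.793. At the limit on the mean, AT3G51750 was inside with 5.02 FPKM and AT3G08636 outside with 4.94 FPKM. The limit on the mean alone kept out 50 genes.

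The members shared a course of level in the mock roots as well as in the AsV roots. In mock the level was lower at 6 h than at 1.5 h in 83 of 88 members (94.3%), with a median log2 ratio of -0.8, and the ratio of 24 h to 6 h had a median of -0.06. Over all tested genes the median mock ratio of 6 h to 1.5 h was -0.01. Among 1917 tested genes that met the limit at 1.5 h but not that at 24 h, the mock level at 6 h lay below that at 1.5 h in 63.7%, with a median of -0.13. Among 1729 that met the limit at 24 h but not that at 1.5 h, it lay below in 62.4%, with a median of -0.09. Part of this is fixed by the choice, which favours a high mock level at 1.5 h and a low one at 24 h. The mock libraries of 6 h were not used by the changes that chose the members. The mock level of 1.5 h, against which they are set here, was used.

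With As(V) the order was the opposite. The level at 24 h was above that at 1.5 h in 87 of 88 members, with a median log2 ratio of 2.04. Over all tested genes that median was -0.02. The choice almost fixes this rise, since it favours a low AsV level at 1.5 h and a high one at 24 h. Set against the mock level at 1.5 h, the AsV level at 24 h had a median log2 ratio of 0.4, above 0 in 65 members and below 0 in 22. The median of this ratio over all tested genes was -0.07. The choice favours high values of both levels in it. Both AsV libraries of 24 h were above all 6 mock libraries in 51 of the 88 members, beside 28.6% of all tested genes. The choice favours this count, since it asks for a higher AsV level than mock at 24 h. The value at 24 h was, in the remaining 37 members, a value above the mock libraries of that time and not above every earlier mock library. The AsV libraries lay below both mock libraries in 87 members at 1.5 h (45.9% of all tested genes) and above both in all 88 members at 24 h (37.9% of all tested genes), which the choice fixes almost entirely.

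At 6 h, the time not used by the choice, most members were still lower with As(V). By limma with Benjamini-Hochberg adjustment over 19772 genes, 54 of the 88 tested members were lower (61.4%) beside 37.6% of all tested genes and 37.5% of tested genes at 5 FPKM or more. Another 16 members were higher (18.2%) beside 35.8% of all tested genes and 44% of those at 5 FPKM or more, and 18 were not called. The median change was -0.85, against -0.12 over all tested genes and 0.07 over tested genes at 5 FPKM or more. The libraries did not overlap in 64 members with As(V) lower (48.3% of all tested genes) and in 19 with As(V) higher (41.2%). With equal FPKM sums per library, 72 members were lower (81.8%) beside 67.3% of all tested genes, and 5 were higher (5.68%) beside 18.1%, with a median of -1.68; all 54 lower members remained lower and 5 of the 16 higher members remained higher.

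Side by side with genes that met only the early or only the late limit, the members lay between them. Of the 1917 tested genes lower at 1.5 h and not higher at 24 h, 88% were lower at 6 h, 4.54% were higher, and the median was -1.65. Of the 1729 tested genes higher at 24 h and not lower at 1.5 h, 6.02% were lower at 6 h, 83.8% were higher, and the median was 2.2. All these values come from the same libraries and no difference between the sets was tested. Within the set, the change at 6 h lay between those at 1.5 h and 24 h in 74 members, below that at 1.5 h in 9 and above that at 24 h in 5.

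**Figure D3:**
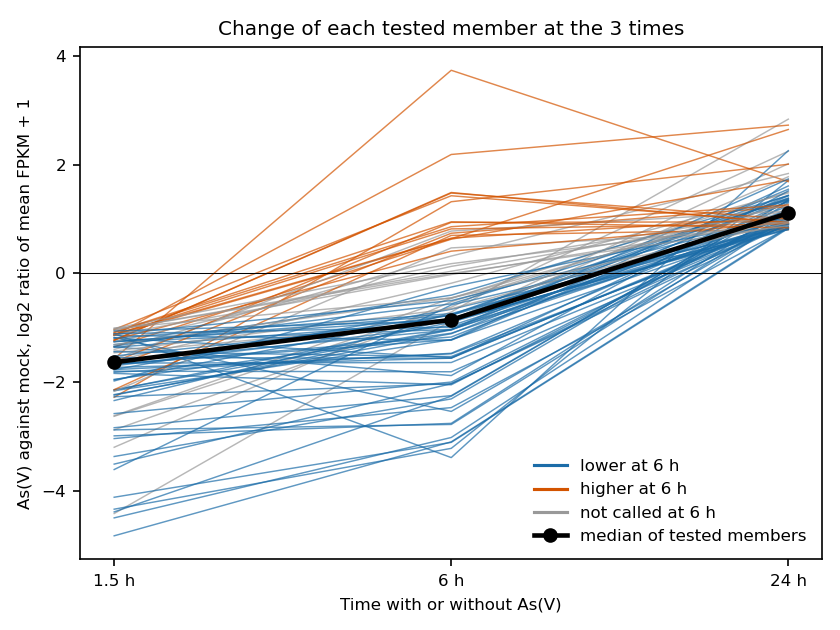
Log2 ratio of mean FPKM + 1 with As(V) against mock at 1.5, 6 and 24 h for each of the 88 tested members, coloured by the limma call at 6 h (54 lower, 16 higher, 18 not called), with the median in black. The median runs from -1.63 at 1.5 h over -0.86 at 6 h to 1.11 at 24 h; the signs at the first and last time are set by the choice of genes.

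**Figure D4:**
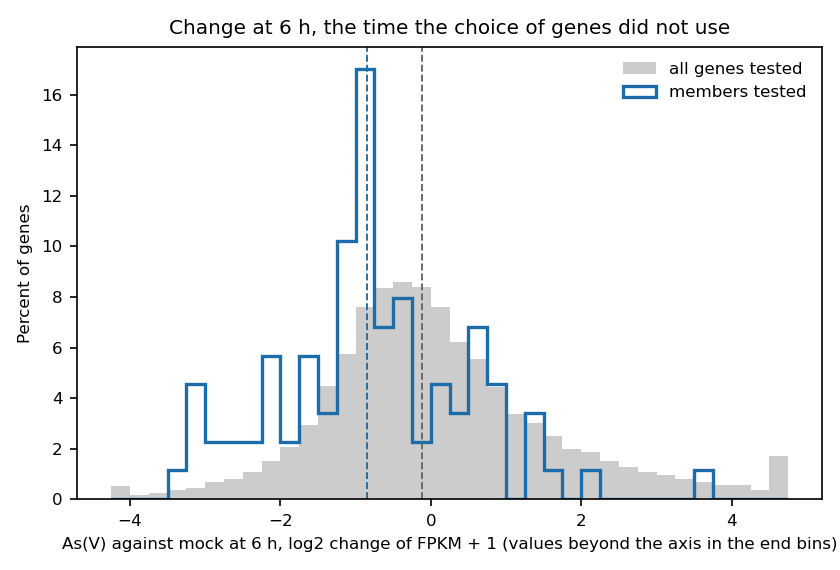
Distribution of the limma log2 change at 6 h in the 88 tested members (outline) and in all 19772 tested genes (grey), in percent of genes, with the medians of -0.85 and -0.12 as dashed lines. The members reach from -3.38 to 3.69, with their bulk below 0.

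For the following account tested members were sorted into 8 role groups after their values were seen, some members into more than 1 group. Their counts at 6 h stand beside 37.6% lower and 35.8% higher among all tested genes, or 67.3% and 18.1% with equal FPKM sums. Flavonoid synthesis genes and other UDP-glycosyltransferases had the lowest median at 1.5 h of these groups. They number 7 members, with a median change of -3.51 at 1.5 h and 1.05 at 24 h; at 6 h 6 were lower, none was higher and 1 was not called. TT5, chalcone isomerase, which closes the ring of the flavanone, is at chr3:20430059-20431597 on the minus strand of TAIR10.1. Naming mock before As(V), and replicate 1 before replicate 2, TT5 had 406 and 415 against 22.8 and 11.7 FPKM at 1.5 h, 218 and 208 against 34.2 and 16.6 FPKM at 6 h, and 126 and 111 against 250 and 241 FPKM at 24 h. Both AsV libraries were far below mock at 1.5 h and 6 h and above it at 24 h, where they were still below the mock libraries of 1.5 h. The change of TT5 at 6 h was -3.11 ± 0.25 (SE, 2 libraries per group; limma, adjusted p = 1.2e-06).

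MYB12, a MYB transcription factor that activates the early flavonol genes in *Arabidopsis*, had 135 and 90.1 against 36.6 and 34.5 FPKM at 1.5 h, 45.1 and 44.7 against 30.7 and 21.3 FPKM at 6 h, and 46.1 and 50.8 against 128 and 126 FPKM at 24 h. The groups did not overlap at any time, and the AsV libraries of 24 h were near the higher mock library of 1.5 h. Its change at 6 h was -0.79 ± 0.22 (SE; limma, adjusted p = 0.007), and without AsV replicate 2 of 6 h it was -0.54, which missed the threshold (adjusted p = 0.08).

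UGT78D1, which adds rhamnose to flavonols, had 38.2 and 32.4 against 2.49 and 1.86 FPKM at 1.5 h, 22.6 in both mock libraries against 5.33 and 4.21 FPKM at 6 h, and 10 and 6.54 against 20.5 and 14.2 FPKM at 24 h. UGT84A1, which glucosylates hydroxycinnamic acids, had 84.2 and 67.2 against 1.71 and 1.68 FPKM at 1.5 h and 13.7 and 13.4 against 24.9 and 25.5 FPKM at 24 h. For both, As(V) was the lower condition without overlap at 1.5 h and 6 h, with changes at 6 h of -2.04 ± 0.3 for UGT78D1 and -3.1 ± 0.32 for UGT84A1 (SE; limma, adjusted p = 9.3e-05 and 3.9e-06). AT2G22590, annotated as a UDP-glycosyltransferase, had a change of -4.42 at 1.5 h and 2.02 at 24 h. At 6 h its mock libraries were already at 5.18 and 6.19 FPKM, from 49.6 and 42.1 FPKM at 1.5 h, and its change of -0.97 ± 0.45 missed the threshold (limma, adjusted p = 0.074). The change was the same when either single mock library of 24 h was left out. It passed with the 6 h groups fitted alone (limma, adjusted p = 0.037).

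Members are 4 of the 11 tested genes of a flavonoid synthesis list. On the whole list 10 genes were lower at 6 h and 1, TTG1, was higher, with a median change of -2.76; with equal FPKM sums all 11 were lower, as were 67.3% of all tested genes. The list had a median change of -3.63 at 1.5 h and 0.47 at 24 h. Beside the members, chalcone synthase, TT4, averaged 2156 FPKM in mock against 258 FPKM with As(V) at 1.5 h, and 1407 against 1338 FPKM at 24 h. The flavanone hydroxylase F3H averaged 662 against 52.4 FPKM at 1.5 h and 207 against 287 FPKM at 24 h. The flavonoid hydroxylase TT7 was below mock at both times, with 101 against 2.06 FPKM at 1.5 h and 40.2 against 19 FPKM at 24 h. Among 105 tested UDP-glycosyltransferases, of which 5 are members, 48 were lower and 41 higher at 6 h (64 and 27 with equal FPKM sums).

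Genes of root formation and growth made a small group, with 5 members, 2 of them lower and 1 higher at 6 h. WOX11, a homeobox factor of the founder cells of adventitious roots, had the highest change at 24 h among the tested members, 2.84. Its gene lies at chr3:889166-892229 on the minus strand. It had 14.3 and 21.3 against 2.42 and 0.696 FPKM at 1.5 h, 4.7 and 4.09 against 2.36 and 2.25 FPKM at 6 h, and 4.57 and 5.45 against 42.1 and 41.9 FPKM at 24 h. The AsV libraries of 24 h were above every mock library, and those of 1.5 h and 6 h below the mock libraries of their time. The change of WOX11 at 6 h, -0.7 ± 0.36, missed the threshold (limma, adjusted p = 0.096). It had the same size when either single mock library of 1.5 h was left out, and it passed with the 6 h groups fitted alone (limma, adjusted p = 0.0083).

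LBD16, a lateral organ boundaries factor that acts below auxin in lateral root initiation, had 8.4 and 8.54 against 3.14 and 2.29 FPKM at 1.5 h, 5.18 and 5.27 against 0.534 and 0.845 FPKM at 6 h, and 3.92 and 4.69 against 15.3 and 13.2 FPKM at 24 h. It was lowest at 6 h, with a change of -1.89 ± 0.34 (SE; limma, adjusted p = 0.0004), and both AsV libraries of 24 h were above every mock library. ARGOS, an auxin-induced gene of organ size, had 119 and 118 against 9.63 and 7.92 FPKM at 1.5 h, 27.4 and 26.6 against 20.7 and 14.8 FPKM at 6 h, and 82 and 65.1 against 139 and 130 FPKM at 24 h. Its mock level was lower at 6 h than at 1.5 h and was higher again at 24 h. The change of ARGOS at 6 h was -0.6 ± 0.2 (SE; limma, adjusted p = 0.017), and -0.37 without AsV replicate 2 of 6 h (adjusted p = 0.18).

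**Figure D5:**
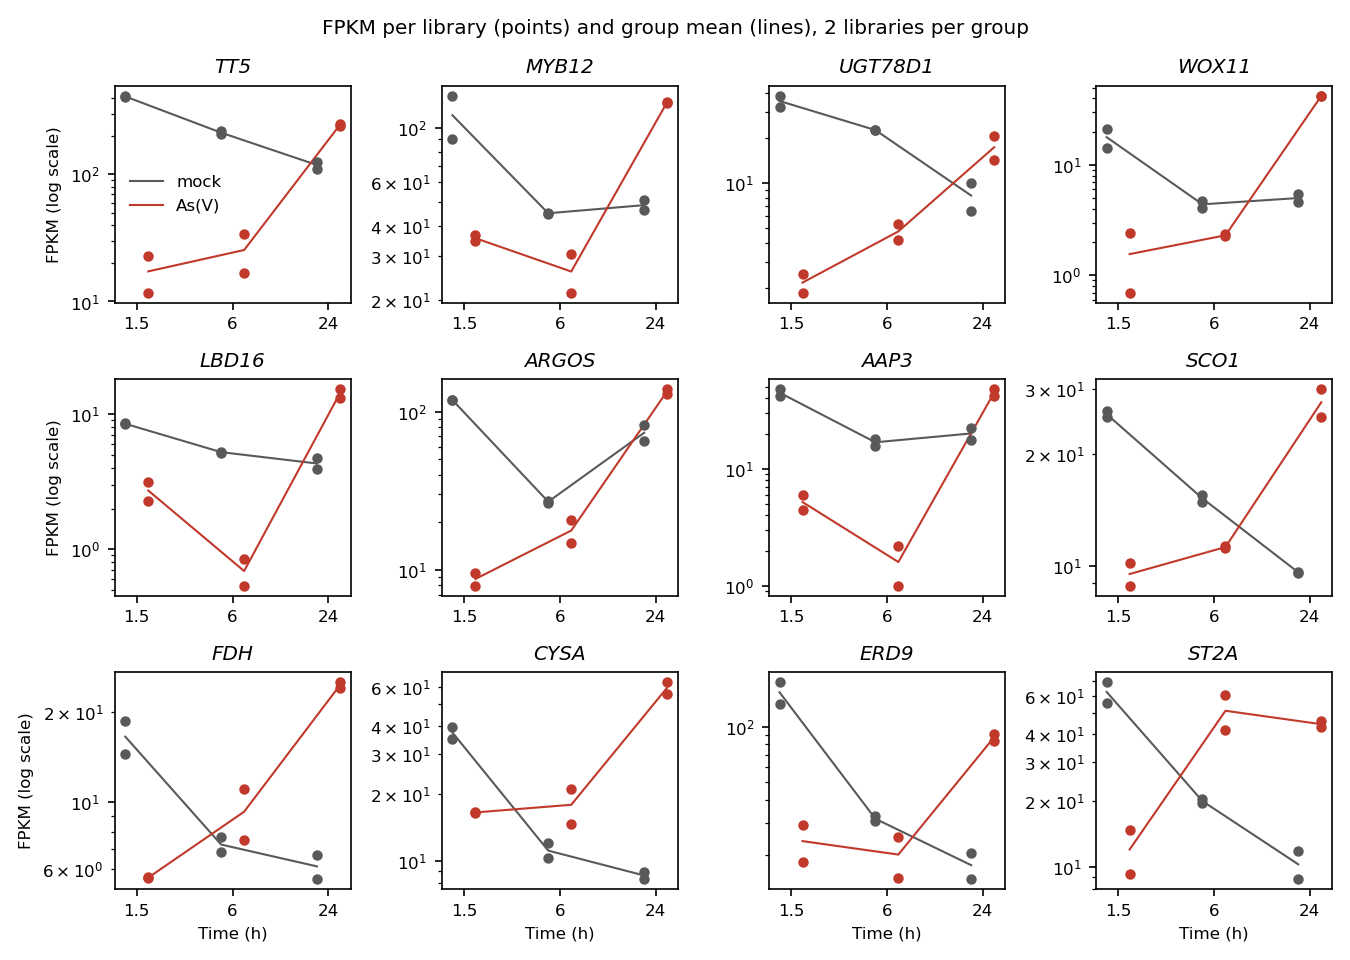
FPKM on a log scale in each library (points) and the group mean (lines) over time in mock (grey) and As(V) (red) for 12 members from the flavonoid, root formation, transport, plastid, stress and hormone groups. In each panel As(V) lies below mock at 1.5 h and above it at 24 h; at 6 h it lies above in ST2A and CYSA and, by its mean, in FDH.

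Transporters numbered 10 members, of which 7 were lower, 1 higher and 2 not called at 6 h, with a median change of -1.26. AAP3, an amino acid permease, had 47.7 and 41.8 against 5.92 and 4.48 FPKM at 1.5 h, 18.1 and 15.6 against 2.2 and 0.997 FPKM at 6 h, and 17.7 and 22.4 against 48 and 41.6 FPKM at 24 h. Its AsV level at 24 h equalled the mock level at 1.5 h (log2 ratio 0.0). UMAMIT11, of a family of amino acid exporters, and AT3G56290, annotated as a potassium transporter, were lower at 6 h, with changes of -3.1 ± 0.36 and -3.22 ± 0.66 (SE; limma, adjusted p = 1.1e-05 and 0.001). AT3G56290 was at 0.292 and 0.554 FPKM with As(V) at 6 h, against 13.1 and 11.4 FPKM in mock, and at 42.1 and 41.9 against 12.4 and 11.9 FPKM at 24 h. The carriers AT1G59740, AT2G26690, ANTR2 and G3Pp4 belong to a list of 152 tested major facilitator and related transporters, of which 71 were lower and 50 higher at 6 h (100 and 31 with equal FPKM sums).

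Genes for proteins of plastids or of their movement numbered 12: 8 were lower at 6 h, 3 higher and 1 not called, with changes at 24 h of 0.81 to 1.44. PSB28, a protein of photosystem II assembly, had 17.7 and 19.6 against 1.41 and 3.17 FPKM at 1.5 h, 16 and 12.6 against 4.2 and 1.49 FPKM at 6 h, and 11.7 and 10.1 against 24.7 and 25.1 FPKM at 24 h. PSB28 is the single member among 50 tested genes of a photosynthesis list. That list had a median change of -0.96 at 24 h, and at 6 h 24 of its genes were lower and 7 higher. SCO1, the elongation factor G of plastid translation, had 26.1 and 25.1 against 8.84 and 10.2 FPKM at 1.5 h and 9.63 and 9.61 against 25.2 and 29.9 FPKM at 24 h. The others include the plastoquinone side chain enzyme SPS1, the photosystem II assembly factor HCF244 and the thylakoid protease FTSH8, whose AsV libraries of 24 h were above every mock library. The summed level of 12 shoot marker genes, read as a sign of green tissue in the sample, all of them detected, was 161 to 298 FPKM in mock and 86.9 to 332 FPKM with As(V) at 1.5 h, 144 to 145 against 128 to 139 FPKM at 6 h, and 154 to 157 against 71.1 to 85.9 FPKM at 24 h. The marker sum was lower with As(V) at 24 h, a time at which the choice of genes fixes the plastid members as higher. At 1.5 h the AsV libraries stood far apart in this sum. LHCB1.1 was listed at 0 in at least 1 library; the part of green tissue in the plastid values was not tested.

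Hormone and peptide genes were the group with the largest share higher at 6 h. Of its 6 members 5 were higher at 6 h, beside 35.8% of all tested genes, 0 were lower and 1, PROPEP6, was not called. With equal FPKM sums 2 were higher, beside 18.1% of all tested genes, 1 was lower and 3 were not called. PROPEP6, a precursor of an elicitor peptide, had a change of -0.66 (limma, adjusted p = 0.08), and the same change when either single mock library of 24 h was left out. It passed the threshold with the 6 h groups fitted alone (limma, adjusted p = 0.023). AT2G38240, annotated as a 2-oxoglutarate-dependent oxygenase, had the highest change at 6 h of all members, 3.69 ± 0.88 (SE; limma, adjusted p = 0.0037). It had 24.8 and 10.6 against 5.85 and 4.7 FPKM at 1.5 h, 0.588 and 0.697 against 26.6 and 15.3 FPKM at 6 h, and 0.111 and 0.116 against 3.32 and 1.86 FPKM at 24 h. Its level at 24 h was low in both conditions and lower with As(V) than mock had been at 1.5 h. ST2A, a sulfotransferase of hydroxyjasmonates, had 68.9 and 55.7 against 14.8 and 9.29 FPKM at 1.5 h, 19.6 and 20.3 against 60.6 and 41.8 FPKM at 6 h, and 11.8 and 8.83 against 46 and 43 FPKM at 24 h. Its change at 6 h was 1.29 ± 0.19 (SE; limma, adjusted p = 8.5e-05), and 0.26 with equal FPKM sums (adjusted p = 0.22). CRF3, a cytokinin response factor, was higher by 1.5 ± 0.14 at 6 h (SE; limma, adjusted p = 1.9e-06). ABA1, the zeaxanthin epoxidase of abscisic acid synthesis, and AFP2, which binds the abscisic acid factor ABI5, were higher by 0.7 and 0.82 at 6 h (limma, adjusted p = 0.00043 and 0.0017); with equal FPKM sums they stood at -0.27 and -0.13 and were not called.

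Transcription factors numbered 14 members, 7 lower, 3 higher and 4 not called at 6 h. The 3 higher were CRF3, OBP2 and SCL3. OBP2, a Dof factor known for its part in indole glucosinolate synthesis, had 16.2 and 16.1 against 42.9 and 51.6 FPKM at 6 h, a change of 1.48 ± 0.09 (SE; limma, adjusted p = 4.4e-08). SCL3, a GRAS protein of gibberellin signalling, had 12.5 and 13.2 against 34.7 and 38.3 FPKM at 6 h, a change of 1.43 ± 0.09 (SE; limma, adjusted p = 4.9e-08). Both were past the threshold with equal FPKM sums too, at 0.45 and 0.41. Of the 4 MYB members, MYB12 and MYB78 were lower at 6 h, while MYB112 (-0.9) and MYB32 (0.7) missed the threshold. MYB78 was at -0.64 without AsV replicate 2 of 6 h, against -1.11 with all libraries. MYB32 was at 1.21 without AsV replicate 1 of 6 h. MYB112 stayed at -0.9 when either single mock library of 1.5 h was left out. It passed without the filter on low values (limma, adjusted p = 0.035) and without precision weights (adjusted p = 0.0015). With 0.1 FPKM added it passed at -1.53 (adjusted p = 0.015), and with equal FPKM sums at -1.41 (adjusted p = 0.01). On the list of 79 tested MYB genes 32 were lower and 20 higher (51 and 11 with equal FPKM sums). The NAC factors NAC048 and NTM1, the latter anchored in membranes, had changes of -2.06 and -1.59 at 6 h (limma, adjusted p = 1.2e-06 and 0.00029), and 24 of 75 tested NAC genes were lower and 32 higher (34 and 26 with equal FPKM sums).

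Stress and redox genes had the highest median change at 24 h of the role groups, 2.04 over 6 members. The changes at 24 h were used by the choice and the groups were made afterwards, so this rank describes only the sorting. At 6 h 3 were lower, 1 higher and 2 not called. ERD9, a glutathione transferase, had 174 and 133 against 29.3 and 18.4 FPKM at 1.5 h, 32.5 and 30.6 against 25.2 and 15.1 FPKM at 6 h, and 20.5 and 14.8 against 91.6 and 83.5 FPKM at 24 h. Its mock level fell by 3.05 on the log2 scale from 1.5 h to 24 h, and the AsV libraries of 24 h were below the mock libraries of 1.5 h. The change of ERD9 at 6 h, -0.67 ± 0.29, missed the threshold (limma, adjusted p = 0.057). It stayed at -0.67 when any single library of 1.5 h or any single mock library of 24 h was left out. Without AsV replicate 1 of 6 h it was -1.02. The change passed with the 6 h groups fitted alone (limma, adjusted p = 0.026) and without precision weights (adjusted p = 0.046). With equal FPKM sums it passed at -1.68 (adjusted p = 0.00031). Its annotated gene span overlaps that of a neighbour on the same strand by 71 bases. ERD9 is the single member among 52 tested glutathione transferases, whose median change at 24 h was 0.06. At 6 h 14 of those were lower and 29 higher. CYSA, a cystatin that inhibits cysteine proteases, had 39.8 and 35.2 against 16.4 and 16.6 FPKM at 1.5 h, 12 and 10.3 against 14.7 and 21 FPKM at 6 h, and 8.31 and 8.97 against 55.9 and 62.8 FPKM at 24 h. Its AsV libraries of 24 h were above every mock library. The change of CYSA at 6 h was 0.62 ± 0.19 (SE; limma, adjusted p = 0.013), and the call was lost without AsV replicate 2 of 6 h (0.38, adjusted p = 0.18), without mock replicate 2 of 6 h (0.52, adjusted p = 0.071) and with equal FPKM sums (-0.37, adjusted p = 0.084).

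The peroxidase AT2G41480 had the lowest change at 6 h, -3.38 ± 0.88 (SE; limma, adjusted p = 0.0048). That value depends on the 1 FPKM added, and with 5 FPKM added it was -1.53 and not called (adjusted p = 0.078). The gene was listed at 0 in both AsV libraries of 6 h against 10.2 and 8.71 FPKM in mock, and at 25 and 24.6 against 4.29 and 4.43 FPKM at 24 h. AT2G41480 is the single member among 56 tested class III peroxidases, whose median change at 24 h was -1.47. At 6 h 36 of those were lower and 7 higher. AT1G16850, an uncharacterized protein, went the other way at 6 h, with 16.1 and 16.8 against 74.1 and 82.9 FPKM, a change of 2.19 ± 0.2 (SE; limma, adjusted p = 1.6e-06). Its change at 24 h was 2.73, the second highest among tested members. KAT5, a peroxisomal thiolase that completes fatty acid oxidation, had 148 and 165 against 6.63 and 6.39 FPKM at 1.5 h, 86.3 and 91.5 against 23.2 and 12.4 FPKM at 6 h, and 48.5 and 40 against 114 and 115 FPKM at 24 h. It followed the course of TT5, lower at 6 h with a change of -2.32 ± 0.19 (SE; limma, adjusted p = 7.3e-07).

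Genes of transcription, translation and the cytoskeleton gave 5 members, 4 lower and 1 not called at 6 h. NRPB7, a subunit of RNA polymerase II, had 20.5 and 18.8 against 4.98 and 4.91 FPKM at 1.5 h, 19.9 and 19.3 against 5.75 and 4.03 FPKM at 6 h, and 15.5 and 19.2 against 34.6 and 32.6 FPKM at 24 h. Its mock level hardly moved (log2 ratio of 24 h to 1.5 h -0.17), unlike that of the flavonoid members, and its change at 6 h was -1.82 ± 0.22 (SE; limma, adjusted p = 1.6e-05). AT5G39850, a ribosomal protein of the S4 family, had 22.5 and 20.6 against 7.64 and 8.61 FPKM at 1.5 h and 23.5 in both mock libraries against 64.1 and 58.9 FPKM at 24 h. It is the single member among 355 tested ribosomal protein genes.

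The role groups take in 56 tested members. Of the other 32, among them AT1G16850 and KAT5, 20 were lower, 6 higher and 6 not called at 6 h, with a median of -0.88, and 10 are annotated as uncharacterized proteins. The single pair of members that are next to each other in the genome is PES1, which makes phytyl esters in plastids, and AT1G54575, 1428 bases apart. They did not have the same change at 6 h: PES1 was higher by 0.94 ± 0.06 (SE; limma, adjusted p = 3.2e-08; -0.08 and not called with equal FPKM sums), and AT1G54575 stood at -0.01 ± 0.17 (adjusted p = 0.94).

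In some tested members replicates stood apart. AT5G51680 was at 1.15 and 0.044 FPKM in the AsV libraries of 6 h. AT5G45430, a protein kinase, was at 16.8 and 0.0217 FPKM in the mock libraries of 1.5 h and at 14.8 and 0.0198 FPKM in those of 24 h. Its AsV libraries were at 0.0189 and 0.0298 FPKM at 1.5 h, at a mean of 20.4 FPKM at 6 h, and at 25.3 and 16.2 FPKM at 24 h. Its mean changes of -3.2 at 1.5 h and 1.37 at 24 h rest on these single libraries. It is the 1 tested member whose libraries overlapped at 1.5 h. Its change at 6 h, -0.5 ± 0.5, was not called (limma, adjusted p = 0.39), and was called lower with the 6 h groups fitted alone (-0.49, adjusted p = 0.047) and with equal FPKM sums (-1.51, adjusted p = 0.033). No tested member repeats over 20% of its exon sequence elsewhere in the genome, while 22 tested members, KAT5, UGT84A1, AAP3, SCO1 and CYSA among them, overlap a gene on the opposite strand and 3 a gene on the same strand. In those named the overlap is 15 to 160 bases. The longest overlaps on the opposite strand are in AT5G51680 (1495 bases), AT2G42360 (1170 bases) and AT1G20070 (1115 bases). The libraries were strand-specific per the labels, and whether counting used the strand is not given in the sources used here.

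The stretch before the gene start was read for 86 protein-coding tested members, as the 300 bases upstream in the RefSeq annotation of TAIR10.1, and 18 motifs were searched on both strands. The G-box CACGTG, a site bound by basic leucine zipper and basic helix-loop-helix factors, was found in 15 members (17.4%), beside 8.2% of 14363 genes at 5 FPKM or more and 7.2% of all 26686. Its shorter relative ACGTG, the core of the abscisic acid response element, which every G-box contains, was found in 37 members (43.0%), beside 27.1% of genes at 5 FPKM or more. The phosphate starvation motif P1BS, GNATATNC, was found in 1 member (1.2%) beside 6.6%, the heat shock element GAANNTTC in 5 (5.8%) beside 11.1%, and the site II element TGGGCC in 8 (9.3%) beside 18.0%. Members were chosen on expression, and these counts are a description without a test. The windows below are shown because they hold the G-box, in capitals, of members from the flavonoid, stress, plastid and transport groups; each is read 5′ to 3′ on the strand of its gene.
MYB12, chr2:19476186-19476235, plus strand: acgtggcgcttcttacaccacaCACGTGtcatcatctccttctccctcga
ERD9, chr1:3398437-3398486, minus strand: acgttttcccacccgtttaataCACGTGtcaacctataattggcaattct
CYSA, chr2:17057317-17057366, plus strand: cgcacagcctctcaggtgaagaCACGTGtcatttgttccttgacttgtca
G3Pp4, chr4:9779951-9780000, minus strand: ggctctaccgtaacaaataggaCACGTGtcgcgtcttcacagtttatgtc
SPS1, chr1:29537505-29537554, minus strand: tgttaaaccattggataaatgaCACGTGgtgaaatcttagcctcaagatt
PSB28, chr4:14149695-14149744, plus strand: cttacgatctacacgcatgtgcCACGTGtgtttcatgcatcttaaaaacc
ATH13, chr5:25948870-25948919, plus strand: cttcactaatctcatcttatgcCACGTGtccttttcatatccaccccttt
DDB2, chr5:23733880-23733929, minus strand: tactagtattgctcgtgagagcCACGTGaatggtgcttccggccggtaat

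The first base of the motif lies 118 bases before the start of MYB12, 106 before ERD9, 49 before CYSA, 39 before G3Pp4, 50 before SPS1, 132 before PSB28, 62 before ATH13 and 200 before DDB2. Of the 4 flavonoid list members only MYB12 has a G-box in this window; TT5, UGT78D1 and UGT84A1 do not. Of all 15 members with the box 9 were lower at 6 h, 3 (CYSA, AFP2 and CRF3) were higher and 3 (ERD9, G3Pp4 and ABCF5) were not called. These counts are near the shares of all tested members, 61.4% lower, 18.2% higher and 20.5% not called. A link of the box to the direction at 6 h was not tested.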

How the data were processed

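RNA was measured in 12 root libraries, 2 in each of 6 groups taken from the labels. The authors deposited FPKM values per gene and library. The submitters' processing notes name edgeR, HTSeq 0.6.0, STAR 2.5.4 and Trim Galore, and TAIR10 as the build, and do not say which tool did what. The scaling formula and annotation version are not given in the sources used here. Single-end reads of 50 bases came from stranded messenger RNA libraries, per the labels' protocols.

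In 15803 of 23156 genes (68.2%) the values were whole multiples of a step within 0.05 reads, taken as the value of 1 read. In the other genes, a relation of the step to exon length minus 204 bases was used, which held for 562 of 2665 genes with a single long exon, so estimated reads are approximate, and some values lie below that of 1 read by it. Genes with at least 1 FPKM and at least 10 estimated reads, each in 2 or more libraries, were tested. limma 3.58.1 (R 4.3.3) was fitted to log2(FPKM + 1) as a model of 6 group means across the 12 libraries, weighted by voom precision weights from the estimated reads, with robust variances. The Benjamini-Hochberg adjustment ran over all tested genes, with calls at adjusted p under 0.05. The fit was also run on simulated counts. Those had the same dispersion for every gene and no unequal scaling between groups, so they do not check the calls under the deposited scaling. A fold change on this scale understates that of low genes. DESeq2 was not run because the values are not counts.

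The members and lists were chosen with earlier results of these data known. Genes were named as the 12 members with the largest difference between 24 h and 1.5 h, the 5 highest and 5 lowest called changes at 6 h, up to 4 members per list with at least 2, the 3 genes nearest to each limit on either side, from which examples are printed, and the 5 highest means. Role groups, the other named members and the printed windows were chosen after their values were seen. Gene names, coordinates and sequence came from RefSeq on TAIR10.1; the deposited table holds no coordinates. Rep1 minus rep2 differences correlated between groups at -0.065 to 0.096, so replicate numbers were not treated as pairs. Alternatives were other pseudocounts, scalings (equal FPKM sums, median of ratios), filters, weights, a replicate block, a fit of the 6 h groups alone and each library left out.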

Additional observations from a re-analysis of the deposited data

How the results depend on the processing

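The set counted 56 genes with a pseudocount of 5, 359 with equal FPKM sums and 68 with a mean of at least 10 FPKM; all 111 members were among the 359, and 104 were among the 119 found with median-of-ratios scaling. It counted 95 to 123 genes when each library was left out, and 88 when only tested genes were allowed, an alternative chosen after seeing the data. Members higher at 6 h numbered 5 with equal FPKM sums and 12 to 16 with a library left out, and members lower 43 to 57, with 43 without AsV replicate 2 of 6 h. The median change at 6 h was -1.68 with equal FPKM sums, -0.51 with a pseudocount of 5 and -0.92 to -0.7 with a library left out. With the replicate block 57 members were lower and 16 higher, with a median of -0.84; ERD9 (-0.63), MYB112 (-0.91) and AT3G59630 (-0.47) then passed the threshold (limma, adjusted p = 0.0064, 0.037 and 0.029). The numbers are not shown to pair the samples. WOX11, AT2G22590 and PROPEP6 passed with the 6 h groups fitted alone, without precision weights and with equal FPKM sums (limma, adjusted p = 0.00065 to 0.046). With equal FPKM sums these members stood below 0 at 6 h instead of above: FTSH8 at -0.96, AFP2 at -0.13, AT1G13910 at -0.32, AT1G26190 at -0.01, PES1 at -0.08, SOB3 at -0.99, CYSA at -0.37, AT3G03990 at -0.33, AT3G05937 at -0.33, AT3G17715 at -0.67, UMAMIT33 at -0.42, MYB32 at -0.25, FDH at -0.64, IREG3 at -0.54, AT5G35970 at -0.13, ABCF5 at -0.85 and ABA1 at -0.27. AT1G54575 stood at 0.08 with median-of-ratios scaling and at -0.09 to 0.06 with a library left out, where SOB3 stood at -0.04 to 0.05 and FTSH8 at -0.01 to 0.09. The call of AT2G41480 was lost with a pseudocount of 5 (-1.53). By construction, equal FPKM sums lower every AsV value of 1.5 h and 6 h relative to mock and raise those of 24 h. That all 111 members were among the 359 was thus almost fixed. The cause of the other differences was not tested. With 2 libraries per group and a low read count in 23 members, neither the order of those members nor small changes at 6 h can be resolved at this depth.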
